A study of Mus musculus with 6 samples.

Results

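Solute carrier (Slc) genes encode membrane proteins that move nutrients, ions, metals and metabolites across the plasma membrane and the membranes of organelles. The members described here were chosen by FPKM values of these same libraries. They were the protein-coding genes whose symbol starts with Slc and a digit and that reached at least 1 FPKM (a level of fragments scaled by gene length and by library size) in at least 2 of the 6 libraries. The table held 24752 genes, and 304 of them were protein-coding Slc genes. Of these, 143 missed that level, 13 of them at 0 in every library, and 13 more were left out by name, namely Slc38a1, Slc38a2, Slc1a5, Slc7a11, Slc7a2, Slc40a1, Slc11a1, Slc11a2, Slc2a1, Slc13a3, Slc30a1, Slc39a1 and Slc39a14. The remaining 148 genes are the members, and all 148 passed the filter on low values used for the tests, which was the same level.

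RNA was measured by sequencing in mouse bone marrow-derived macrophages (BMDMs), which are grown from marrow precursors of mice aged 8 to 10 weeks for 7 days and kept with 10 ng/mL of M-CSF, the growth factor on which macrophages depend. There were 3 groups of 2 libraries, and the labels call the replicates B and C. Glul_LPS cells were labelled as overexpressing Glul, which encodes glutamine synthetase, from a lentiviral vector for 36 h, and were then given LPS at 100 ng/ml for 3 h. LPS cells received the same LPS dose for the same time, and control cells carry the label control alone. LPS, or lipopolysaccharide, comes from the outer membrane of bacteria and signals through Toll-like receptor 4. The sample records give 36 h with a vector for all libraries, LPS and control included. The protocol names a control vector and a Glul vector, but LPS and control libraries are not assigned to a vector by their labels. Strain and sex of the mice were not stated. Since no label says whether B and C stem from different mice or dishes, the p-values reflect spread among libraries that can be purely technical.

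Transporters set which substrates a macrophage can take up, store in lysosomes or pass into mitochondria. Activated macrophages are known for high glucose use and lactate release, for withholding iron, zinc and other metals from bacteria, and for digesting engulfed cells in lysosomes, whose membranes carry exporters for the released amino acids, sugars, nucleosides and haem. The SLC25 family serves the mitochondrial inner membrane, the SLC35 family mainly brings nucleotide sugars into the Golgi and endoplasmic reticulum for glycosylation, the SLC30 family moves zinc out of the cytosol and the SLC39 family moves it in.

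Depth was 15649764 to 18691669 fragments per library, and where whole fragments could be recovered in all libraries (131 of 148 members) the least covered member had 17. Glul itself had 37.2 and 37.7 FPKM in Glul_LPS libraries, 30.6 and 33.4 FPKM in LPS libraries and 140.2 and 140.3 FPKM in control libraries. The libraries labelled as overexpressing Glul were thus close to LPS libraries in Glul RNA (log2 difference 0.22, limma adjusted p = 0.122), so the label was not borne out by this measure. Whether a vector transcript would be counted as Glul was not stated. All 8 macrophage markers were tested, and the highest, Lyz2, averaged 15987 FPKM. Summed markers of other cell types reached at most 70.7 FPKM, a value set by the neutrophil list, in which Csf3r was highest. The dendritic cell list summed to 23.4 and 18.4 FPKM in Glul_LPS libraries, 39.0 and 36.8 FPKM in LPS libraries and 43.3 and 39.0 FPKM in control libraries. In bulk RNA, fewer cells of a type and less RNA per cell cannot be told apart.

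The members spanned a wide range of levels. The mean over the 6 libraries ran from 0.637 to 178 FPKM with a median of 6.08, and 10 members averaged at least 50 FPKM. The highest was Slc25a5, an adenine nucleotide translocator that exchanges ADP and ATP across the mitochondrial inner membrane, with 154 and 157 FPKM in Glul_LPS libraries, 152 and 166 FPKM in LPS libraries and 219 and 218 FPKM in control libraries. Next came the taurine transporter Slc6a6, with 137 and 141 FPKM in Glul_LPS libraries, 143 and 136 FPKM in LPS libraries and 111 and 113 FPKM in control libraries, and the copper transporter family member Slc31a2, with 149 and 152 FPKM in Glul_LPS libraries, 139 and 136 FPKM in LPS libraries and 84.6 and 78.0 FPKM in control libraries. All 6 libraries thus held these 3 at high levels, with control highest for Slc25a5 and lowest for the other two. A share of 33.8% of the 50-base words of Slc25a5 also occurs in other genes, among them processed copies, so its count is uncertain.

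In 126 members both libraries of all 3 groups reached 1 FPKM. Another 17 members reached it in both libraries of control alone, among them the sulphate transporter family member Slc26a11 and the lysosomal arginine sensor Slc38a9, and Slc7a5 reached it in both libraries of Glul_LPS and of LPS but not of control. These members entered through the group where they were high, so their differences with LPS are partly set by the rule. Just inside the level, the second highest of the 6 values was 1.17 FPKM for Slc45a3, 1.21 FPKM for Slc25a40 and 1.43 FPKM for Slc7a5. Just outside it was 0.974 FPKM for Slc29a2, 0.964 FPKM for Slc24a5 and 0.936 FPKM for Slc25a27.

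With LPS, most Slc members were lower than in control cells, while a small set that included Slc2a6, Slc28a2, Slc25a22, Slc30a4, Slc44a1 and Slc16a1 was higher. By limma on log2(FPKM + 1), with the Benjamini-Hochberg adjustment over 10962 genes and a threshold of 0.05, 20 members rose (13.5%, against 17.1% of all genes tested) and 110 fell (74.3%, against 68.0%). The other 18 missed the threshold. The median change over members was -0.73 log2 units, beside -0.50 over all genes tested, so the members' counts have to be read against a fall of the median gene. After subtracting the median gene in every library, 40 members were higher (27.0%, against 34.6%) and 77 were lower (52.0%, against 32.2%), with a median of -0.21 for members and 0.02 for all genes. Values called relative to the median gene are on that scale.

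Among the 86 members with a mean of at least 5 FPKM, a split chosen after seeing the data, 18 rose (20.9%, against 24.4%) and 57 fell (66.3%, against 62.5%). As 4 of the 6 libraries in that mean were LPS-treated, the split favours genes that are high with LPS. On the centred scale, 32 of these were higher (37.2%, against 46.7%) and 41 were lower (47.7%, against 26.0%). A change of at least 1 log2 unit was reached upward by 6 members (4.05%, against 7.49%) and downward by 42 (28.4%, against 19.7%). The share of members that rose was below that of all genes on each of these readings, and the share that fell was above it. The difference between the members and other genes was not tested.

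**Figure D1:**
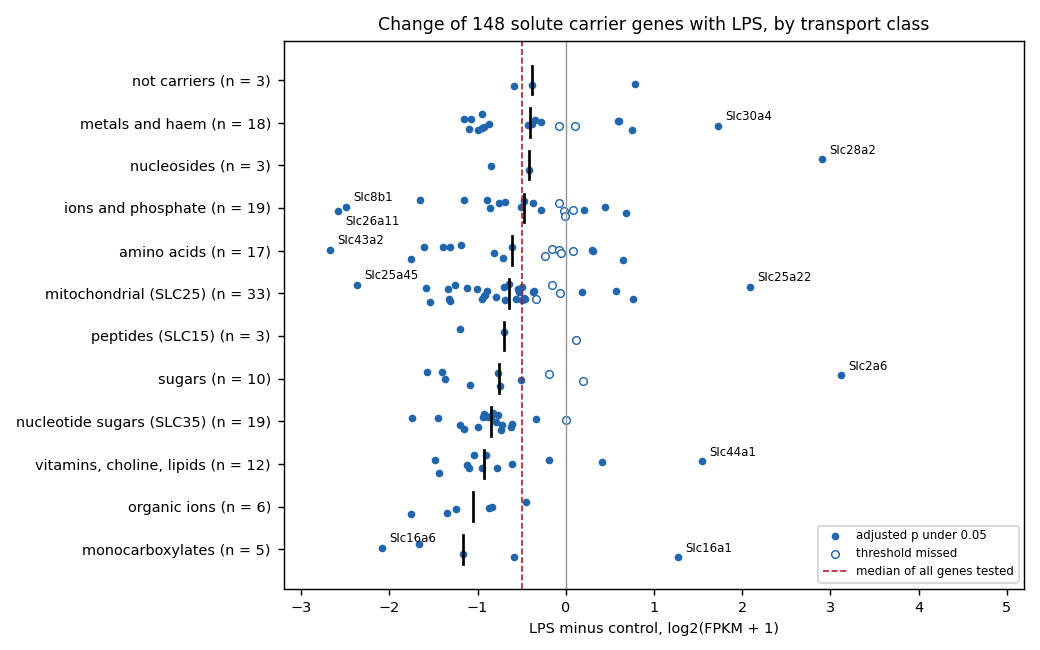
Log2 difference between LPS and control, on the log2(FPKM + 1) scale, for each of the 148 Slc members (1 point each), with transport classes down the page. Black bars are class medians, the dashed line is the median of all genes tested (-0.50), and filled points passed an adjusted p of 0.05. Most points lie left of 0, and Slc2a6 (3.12) and Slc28a2 (2.91) stand farthest to the right.

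The 6 members that rose by at least 1 log2 unit were carriers of sugars, nucleosides, glutamate, zinc, choline and lactate. Slc2a6 encodes GLUT6, a member of the facilitative hexose transporter family found on lysosomal membranes (ENSMUSG00000036067, chr2:27021363-27027998, minus strand, GRCm38). It had 139 and 159.8 FPKM in Glul_LPS libraries, 162 and 157 FPKM in LPS libraries and 19.8 and 15.3 FPKM in control libraries. Every LPS-treated library was above every control library, the LPS mean was 9.08 times the control mean, and the log2 change was 3.12 (SE 0.12, limma adjusted p = 2.84e-06).

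Slc28a2, a sodium-coupled importer of purine nucleosides, had 40.3 and 38.3 FPKM in Glul_LPS libraries, 56.4 and 50.9 FPKM in LPS libraries and 6.57 and 5.99 FPKM in control libraries. The groups did not overlap and LPS stood highest, with a log2 change of 2.91 for LPS with control (SE 0.0718, limma adjusted p = 5.36e-07). A near copy, Gm14085, shares 35.4% of its 50-base words, so fragments could be split between them, but that gene had at most 0.0746 FPKM in any library.

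Slc25a22, a mitochondrial carrier that brings glutamate into the matrix, had 22.1 and 25.9 FPKM in Glul_LPS libraries, 22.7 and 19.5 FPKM in LPS libraries and 4.21 and 4.19 FPKM in control libraries. Its log2 change was 2.09 (SE 0.10, limma adjusted p = 5.89e-06), and both LPS-treated groups lay clear of control. The vesicular zinc transporter Slc30a4 had 6.30 and 6.39 FPKM in Glul_LPS libraries, 7.39 and 7.15 FPKM in LPS libraries and 1.46 and 1.52 FPKM in control libraries, a log2 change of 1.73 for LPS with control. Slc44a1, a choline transporter, had 61.7 and 57.4 FPKM in Glul_LPS libraries, 64.7 and 57.1 FPKM in LPS libraries and 20.0 and 20.5 FPKM in control libraries, a log2 change of 1.54. For both, the LPS-treated libraries lay far above the control libraries, with no overlap.

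Slc16a1 encodes MCT1, a proton-coupled carrier of lactate and pyruvate. It had 8.18 and 7.82 FPKM in Glul_LPS libraries, 9.67 and 8.79 FPKM in LPS libraries and 3.20 and 3.25 FPKM in control libraries, and the log2 change for LPS with control was 1.27 (SE 0.0677, limma adjusted p = 9.11e-06). All 4 LPS-treated libraries were above both control libraries.

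Relative to the median gene, the changes were 3.64 (Slc2a6), 3.43 (Slc28a2), 2.60 (Slc25a22), 2.25 (Slc30a4), 2.06 (Slc44a1) and 1.79 (Slc16a1) log2 units. Centring moved every gene of this comparison up by the same amount, so it could not turn these rises and is no check on them.

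Promoters of the 6 members that rose by at least 1 log2 unit are shown because NF-kB is the best known transcription factor family activated by LPS. The windows are the 250 bases before the transcription start, read 5′ to 3′ on the gene's strand, from RefSeq on GRCm38.p6, for Slc2a6 (chr2:27027999-27028248, minus strand), Slc28a2 (chr2:122426185-122426434, plus strand), Slc25a22 (chr7:141437875-141438124, minus strand), Slc30a4 (chr2:122702664-122702913, minus strand), Slc44a1 (chr4:53440163-53440412, plus strand) and Slc16a1 (chr3:104638414-104638663, plus strand). Where RefSeq gives several starts, as for Slc25a22 and Slc44a1, only the window of the most upstream start is shown. Capitals mark a match on either strand to the NF-kB letters GGGANNNNCC.
Slc2a6: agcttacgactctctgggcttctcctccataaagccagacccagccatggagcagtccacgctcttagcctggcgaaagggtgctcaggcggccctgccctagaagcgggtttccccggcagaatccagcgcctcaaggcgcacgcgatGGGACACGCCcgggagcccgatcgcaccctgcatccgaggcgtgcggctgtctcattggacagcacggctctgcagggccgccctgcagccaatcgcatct
Slc28a2: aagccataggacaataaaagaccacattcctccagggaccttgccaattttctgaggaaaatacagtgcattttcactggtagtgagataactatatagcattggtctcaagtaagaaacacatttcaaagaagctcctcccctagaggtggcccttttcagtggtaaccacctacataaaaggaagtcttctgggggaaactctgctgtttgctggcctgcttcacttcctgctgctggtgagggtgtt
Slc25a22: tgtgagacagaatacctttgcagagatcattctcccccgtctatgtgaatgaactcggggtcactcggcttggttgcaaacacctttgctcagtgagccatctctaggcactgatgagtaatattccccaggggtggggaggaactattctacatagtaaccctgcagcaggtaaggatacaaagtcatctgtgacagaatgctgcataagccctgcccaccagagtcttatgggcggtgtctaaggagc
Slc30a4: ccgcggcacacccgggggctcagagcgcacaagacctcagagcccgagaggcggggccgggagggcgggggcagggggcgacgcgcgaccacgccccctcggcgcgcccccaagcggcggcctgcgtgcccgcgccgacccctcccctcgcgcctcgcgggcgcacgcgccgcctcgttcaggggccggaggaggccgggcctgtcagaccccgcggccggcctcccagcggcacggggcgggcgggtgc
Slc44a1: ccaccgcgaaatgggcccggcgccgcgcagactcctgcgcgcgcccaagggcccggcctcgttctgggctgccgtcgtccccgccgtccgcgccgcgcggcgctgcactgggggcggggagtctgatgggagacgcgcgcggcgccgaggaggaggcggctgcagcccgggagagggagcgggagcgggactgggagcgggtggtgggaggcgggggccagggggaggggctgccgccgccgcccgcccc
Slc16a1: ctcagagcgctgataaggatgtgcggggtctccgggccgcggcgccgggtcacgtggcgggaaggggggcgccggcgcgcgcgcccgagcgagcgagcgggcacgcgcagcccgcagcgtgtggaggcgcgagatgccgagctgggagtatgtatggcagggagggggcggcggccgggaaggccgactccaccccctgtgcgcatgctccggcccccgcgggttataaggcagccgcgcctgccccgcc
The Slc2a6 window held 1 match, whose position is -101 from the start, and the letters were absent from the other 5 windows. Over windows that run 250 bases before to 50 bases after the start, 116 members were matched in RefSeq by symbol. The letters occurred in 35 of these (30.2%), beside 30.1% of 7692 protein-coding genes tested and 22.9% of all 27025 genes with a window. The antioxidant response element letters TGACNNNGC occurred in 22.4% of members and 17.4% of protein-coding genes tested, and the interferon-stimulated response element letters GAAANNGAAA in 2.59% and 4.17%. A Slc25a22 window that is not shown (chr7:141435326-141435625) held 1 match to the latter letters. Each motif was counted on its own, and a match is a description of letters only.

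**Figure D2:**
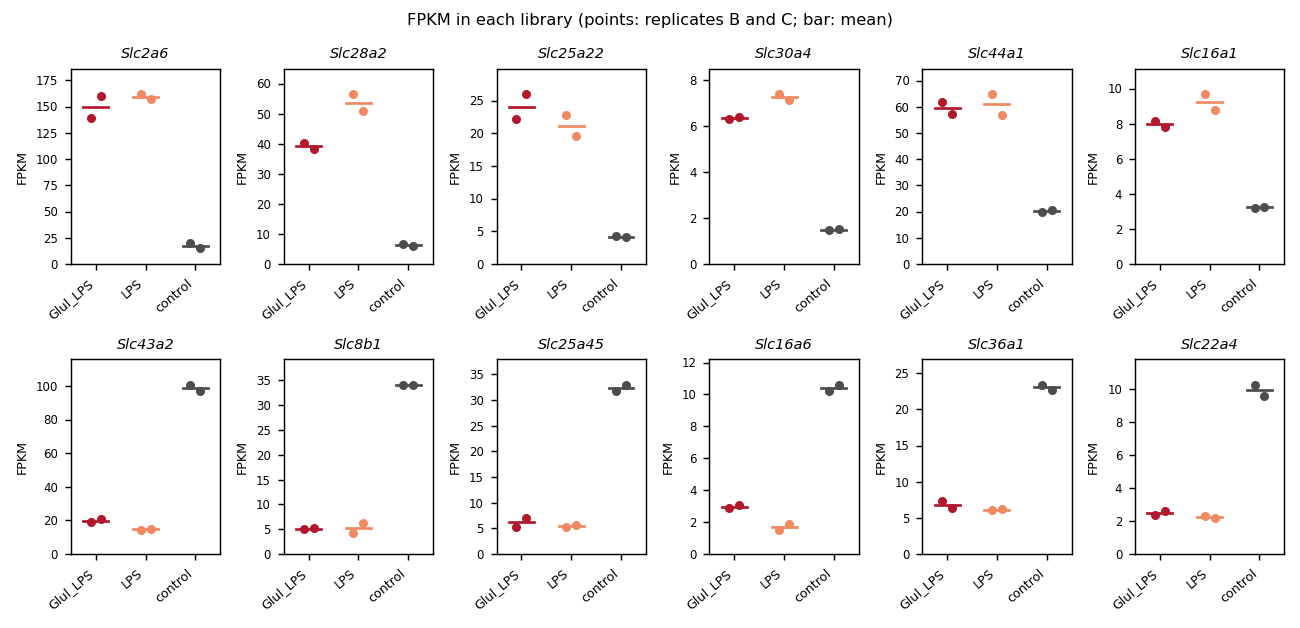
FPKM in each library for the 6 members that rose most with LPS (upper row) and 6 of those that fell most (lower row), each panel on its own linear axis from 0, with Glul_LPS, LPS and control from left to right. Points are replicates B and C and bars are group means. In the upper row the control libraries are lowest, and in the lower row they are highest, with no overlap with either LPS-treated group.

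The falls farthest from 0 were those of Slc43a2, Slc26a11, Slc8b1, Slc25a45 and Slc16a6. Slc43a2 encodes LAT4, a sodium-independent carrier of large neutral amino acids (ENSMUSG00000038178, chr11:75531694-75577575, plus strand, GRCm38). It had 19.0 and 20.8 FPKM in Glul_LPS libraries, 14.5 and 14.8 FPKM in LPS libraries and 101 and 97.1 FPKM in control libraries. The control mean was 6.75 times the LPS mean and the log2 change was -2.67 (SE 0.0584, limma adjusted p = 3.77e-07).

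Slc8b1, the sodium-calcium exchanger of mitochondria known as NCLX, had 4.99 and 5.28 FPKM in Glul_LPS libraries, 4.29 and 6.33 FPKM in LPS libraries and 34.1 and 34.2 FPKM in control libraries, a log2 change of -2.50 (SE 0.14, limma adjusted p = 1.26e-05). The mitochondrial carrier Slc25a45 had 5.37 and 7.09 FPKM in Glul_LPS libraries, 5.30 and 5.67 FPKM in LPS libraries and 31.8 and 33.0 FPKM in control libraries, a log2 change of -2.36. In both genes the control libraries were several times as high as any other, and the spread between the LPS libraries was small beside that gap. Slc26a11 had 0.277 and 0.319 FPKM in Glul_LPS libraries, 0.430 and 0.405 FPKM in LPS libraries and 7.44 and 7.48 FPKM in control libraries. As it entered the set through control alone, that difference is given as a description.

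Slc16a6, a relative of the lactate carriers that exports ketone bodies from liver in zebrafish, had 2.86 and 3.08 FPKM in Glul_LPS libraries, 1.54 and 1.88 FPKM in LPS libraries and 10.2 and 10.6 FPKM in control libraries, a log2 change of -2.08 for LPS with control (SE 0.0835, limma adjusted p = 3.10e-06). A share of 23.5% of its exon bases overlaps Amz2 and Arsg on the opposite strand, and as the strand setting of the counting is not given, reads there cannot be told apart. Amz2 had 4.66 and 4.35 FPKM in Glul_LPS libraries, 3.99 and 4.58 FPKM in LPS libraries and 4.92 and 4.74 FPKM in control libraries, and Arsg had 0.511 and 0.622 FPKM in Glul_LPS libraries, 0.779 and 0.808 FPKM in LPS libraries and 2.40 and 2.47 FPKM in control libraries. The part of these neighbours in the Slc16a6 values was not tested.

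Smaller falls, each past the threshold, were seen in the lysosomal proton-coupled amino acid carrier Slc36a1 (-1.75), its relative Slc36a4 (-1.61), the ergothioneine transporter Slc22a4 (-1.75), the Golgi GDP-fucose transporter Slc35c1 (-1.75), the lactate exporter Slc16a3 (-1.66), the phosphate importer Slc20a1 (-1.66), the mitochondrial carrier Slc25a30 (-1.59), the sugar-phosphate exchanger Slc37a2 (-1.57), the fatty acid transport protein Slc27a1 (-1.49) and the SLC35 family member Slc35f6 (-1.45). Each also fell relative to the median gene. Slc37a2, a protein abundant in macrophages, had 24.8 and 23.3 FPKM in Glul_LPS libraries, 23.3 and 23.9 FPKM in LPS libraries and 70.6 and 73.6 FPKM in control libraries. Both LPS-treated groups were at a similar level, well below control.

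Amino acid carriers counted 17 members, of which 3 rose (17.6%, against 17.1% of all genes tested) and 9 fell (52.9%, against 68.0%). Relative to the median gene 7 were higher (41.2%, against 34.6%) and 8 lower (47.1%, against 32.2%). Of these, 2 fallers entered through control alone and 1 riser, Slc7a5, through the LPS-treated groups. Slc7a8, the light chain LAT2 that exchanges neutral amino acids, had 68.6 and 70.0 FPKM in Glul_LPS libraries, 81.8 and 83.4 FPKM in LPS libraries and 52.4 and 52.1 FPKM in control libraries, a log2 change of 0.65 for LPS with control (limma adjusted p = 2.09e-05). Slc6a6 rose by a log2 change of 0.31 (limma adjusted p = 9.25e-04). For Slc7a8 the LPS libraries were highest and the control libraries lowest. Slc3a2, the heavy chain CD98 that carries several light chains to the cell surface, had 92.8 and 93.4 FPKM in Glul_LPS libraries, 99.5 and 103 FPKM in LPS libraries and 105 and 109 FPKM in control libraries, a log2 difference of -0.08 that missed the threshold (limma adjusted p = 0.131). Centred on the median gene, that difference was 0.44 (limma adjusted p = 1.71e-04), the opposite sign.

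The light chain Slc7a7, which exchanges cationic for neutral amino acids, differed by -0.05 log2 units and missed the threshold (limma adjusted p = 0.382), while relative to the median gene it was 0.47 higher. The arginine importer Slc7a1 had 1.38 and 1.57 FPKM in LPS libraries, against 1.26 and 1.40 FPKM in control libraries, with overlapping libraries. Slc7a5, the light chain LAT1, stood at 1.43 and 1.43 FPKM in Glul_LPS libraries, 1.32 and 1.06 FPKM in LPS libraries and 0.923 and 0.638 FPKM in control libraries, near the level at which members enter, and is given as a description. Its call for LPS with control was lost in 4 of the 6 fits without 1 library (limma adjusted p from 0.0625 to 0.195). The 17 members together summed to 399.8 and 409 FPKM in Glul_LPS libraries, 418 and 415 FPKM in LPS libraries and 522 and 517 FPKM in control libraries.

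Of the 5 monocarboxylate carriers, 1 rose (20%, against 17.1% of all genes tested) and 4 fell (80%, against 68.0%), 1 of which, Slc16a13, entered through control alone. After centring 1 was higher (20%, against 34.6%) and 3 lower (60%, against 32.2%). Their summed level was 29.0 and 28.4 FPKM in Glul_LPS libraries, 26.6 and 29.1 FPKM in LPS libraries and 68.8 and 65.1 FPKM in control libraries. Slc16a3 encodes MCT4, the carrier known for lactate export from glycolytic cells. It had 15.1 and 14.8 FPKM in Glul_LPS libraries, 12.5 and 15.8 FPKM in LPS libraries and 49.3 and 44.3 FPKM in control libraries, so control libraries were highest, and its log2 change was -1.66 (SE 0.11, limma adjusted p = 2.13e-05). The ratio of Slc16a1 to Slc16a3 within a library was 0.541 and 0.530 in Glul_LPS libraries, 0.774 and 0.556 in LPS libraries and 0.0650 and 0.0733 in control libraries. Slc16a3 was still the higher of the pair in every library.

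Sugar and sugar-phosphate carriers counted 10 members, of which 1 rose (10%, against 17.1% of all genes tested) and 7 fell (70%, against 68.0%), with Slc2a6 the riser and 1 of the 7 in the set through control alone. The centred counts were 3 higher and 6 lower, 30% and 60%, against 34.6% and 32.2% of all genes. Their summed level was 189 and 208 FPKM in Glul_LPS libraries, 207 and 205 FPKM in LPS libraries and 139 and 136 FPKM in control libraries, higher with LPS although most members fell, since Slc2a6 alone supplied most of the sum in LPS-treated libraries. Slc37a4, which moves glucose-6-phosphate into the endoplasmic reticulum, had 1.42 and 1.39 FPKM in Glul_LPS libraries, 1.35 and 1.37 FPKM in LPS libraries and 5.39 and 5.11 FPKM in control libraries, a log2 change of -1.41 (limma adjusted p = 7.17e-06). Slc2a8, an intracellular hexose transporter, had 3.46 and 3.75 FPKM in LPS libraries, against 7.07 and 6.65 FPKM in control libraries, a log2 change of -0.77. Slc50a1, the mammalian member of the sugar efflux family, fell by a log2 change of -1.08.

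**Figure D3:**
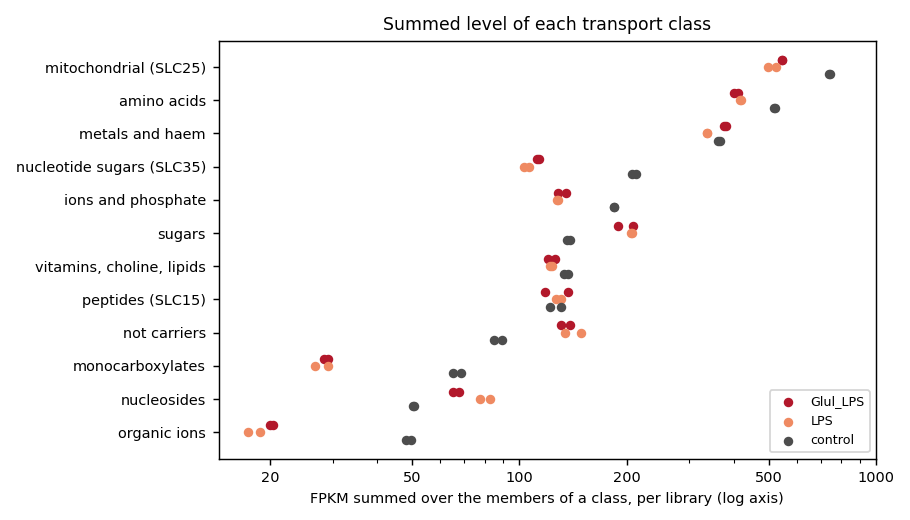
FPKM summed over the members of each transport class in each library (log axis), with Glul_LPS above LPS above control within a class and 2 points per group. The control libraries are rightmost for mitochondrial, amino acid, nucleotide sugar, ion, monocarboxylate and organic ion carriers and for carriers of vitamins, choline and lipids. They are leftmost for sugar and nucleoside carriers and for the genes that are not carriers. Metal and peptide carriers follow neither order.

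Mitochondrial carriers of the SLC25 family made up 33 members, of which 4 rose (12.1%, against 17.1% of all genes tested) and 26 fell (78.8%, against 68.0%). On the centred scale 7 were higher (21.2%, against 34.6%) and 16 lower (48.5%, against 32.2%), and 5 of the 26 that fell entered through control alone. The class median was -0.64 log2 units, close to that of all members, and the sum was 544 and 545 FPKM in Glul_LPS libraries, 499 and 525 FPKM in LPS libraries and 743 and 739 FPKM in control libraries. The other risers beside Slc25a22 were Slc25a37 (mitoferrin-1, an iron importer, log2 change 0.76), Slc25a12 (an aspartate-glutamate carrier of the malate-aspartate shuttle, 0.57) and the peroxisomal carrier Slc25a17 (0.19). The call for Slc25a17 was lost when LPS replicate C or either control replicate was left out, with limma adjusted p from 0.0849 to 0.145.

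Pairs of related mitochondrial carriers differed in direction. Slc25a37 had 22.4 and 21.5 FPKM in Glul_LPS libraries, 24.0 and 25.3 FPKM in LPS libraries and 14.8 and 13.5 FPKM in control libraries, while the second mitoferrin, Slc25a28, had 33.1 and 33.5 FPKM in Glul_LPS libraries, 29.4 and 27.4 FPKM in LPS libraries and 36.8 and 36.4 FPKM in control libraries. Control libraries were lowest for the first and highest for the second, with log2 changes of 0.76 (limma adjusted p = 5.30e-05) and -0.36 (limma adjusted p = 7.10e-04), but relative to the median gene Slc25a28 was 0.16 higher. Slc25a12 had 9.65 and 9.05 FPKM in LPS libraries, against 5.88 and 6.11 FPKM in control libraries, and its relative Slc25a13 had 1.81 and 1.91 FPKM in LPS libraries, against 3.45 and 2.99 FPKM in control libraries, with log2 changes of 0.57 and -0.56. The Slc25a13 fall did not pass relative to the median gene (-0.04) and turned to 0.044 after quantile normalization.

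Slc25a1, which exports citrate from mitochondria, had 25.9 and 26.1 FPKM in Glul_LPS libraries, 18.7 and 21.2 FPKM in LPS libraries and 28.3 and 28.0 FPKM in control libraries, a log2 change of -0.48 for LPS with control (limma adjusted p = 5.64e-04). The dicarboxylate carrier Slc25a10 changed by -0.37 and the translocator Slc25a5 by -0.46. Centred values of these 3 were 0.04, 0.15 and 0.06 and did not pass. The oxoglutarate-malate carrier Slc25a11 (-0.91), the carnitine-acylcarnitine carrier Slc25a20 (-0.95), the glutathione importer Slc25a39 (-0.70) and the translocator Slc25a4 (-0.69) fell on both readings. The phosphate carrier Slc25a3 fell as deposited (-0.64) and did not pass relative to the median gene (-0.12).

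In the class of nucleotide sugar transporters and their SLC35 relatives, 18 of 19 members fell (94.7%, against 68.0% of all genes tested) and 0 rose (against 17.1%), and 1 of the 18 entered through control alone. Centred, 1 was higher (5.26%, against 34.6%) and 15 lower (78.9%, against 32.2%). Their median was -0.85 log2 units and their sum was 112 and 113 FPKM in Glul_LPS libraries, 103 and 107 FPKM in LPS libraries and 212 and 207 FPKM in control libraries, a ratio of LPS to control of 0.501. Slc35c1 had 4.66 and 5.37 FPKM in Glul_LPS libraries, 3.83 and 4.54 FPKM in LPS libraries and 17.3 and 15.4 FPKM in control libraries, and the CMP-sialic acid transporter Slc35a1 had 3.36 and 3.12 FPKM in Glul_LPS libraries, 2.92 and 2.83 FPKM in LPS libraries and 7.89 and 7.93 FPKM in control libraries, a log2 change of -1.20 (limma adjusted p = 9.63e-06). In both, the LPS-treated libraries lay below every control library. The PAPS transporter Slc35b2, which supplies sulphate donors, fell by a log2 change of -0.94, and Slc35a4, the highest by level of the class, by -0.80. The exception was Slc35a3, a UDP-N-acetylglucosamine transporter, with 5.82 and 5.89 FPKM in Glul_LPS libraries, 5.61 and 5.10 FPKM in LPS libraries and 5.25 and 5.41 FPKM in control libraries and a log2 difference of 0.0045.

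Metal carriers counted 18 members, of which 4 rose (22.2%, against 17.1% of all genes tested) and 12 fell (66.7%, against 68.0%), shares near those of all genes. Relative to the median gene, 7 were higher (38.9%, against 34.6%) and 8 lower (44.4%, against 32.2%). All 4 risers belong to the copper transporter family or to the SLC30 family. The copper importer Slc31a1 had 42.0 and 43.3 FPKM in Glul_LPS libraries, 41.7 and 41.7 FPKM in LPS libraries and 28.4 and 25.8 FPKM in control libraries, and Slc31a2, its intracellular relative, was given above. Their log2 changes were 0.61 (limma adjusted p = 1.06e-04) and 0.75 (limma adjusted p = 2.87e-05), with the control libraries lowest for both. The SLC30 family member Slc30a6 rose by a log2 change of 0.59. Of the zinc importers, Slc39a4, Slc39a13, Slc39a3 and Slc39a9 fell by log2 changes of -1.10, -1.08, -0.99 and -0.87. The other SLC39 members, Slc39a6, Slc39a10 and Slc39a11, were below 0 as deposited but above 0 relative to the median gene. The zinc transporter of the secretory pathway Slc30a5 fell by -0.93, and Slc30a7 missed the threshold (0.11, limma adjusted p = 0.276).

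Ion carriers counted 19 members, of which 3 rose (15.8%, against 17.1% of all genes tested) and 12 fell (63.2%, against 68.0%), also near the shares of all genes, and 2 of the 12 that fell entered through control alone. With the median gene subtracted 8 were higher (42.1%, against 34.6%) and 7 lower (36.8%, against 32.2%). The potassium-chloride cotransporter Slc12a4 had 30.4 and 32.0 FPKM in Glul_LPS libraries, 32.2 and 31.4 FPKM in LPS libraries and 20.1 and 18.7 FPKM in control libraries, a log2 change of 0.69 (limma adjusted p = 5.42e-05), and the sodium-bicarbonate cotransporter Slc4a7 had 12.2 and 12.1 FPKM in Glul_LPS libraries, 12.6 and 10.9 FPKM in LPS libraries and 7.90 and 8.82 FPKM in control libraries, a log2 change of 0.44 (limma adjusted p = 0.00264). Control libraries were lowest for both. Slc12a7, a further potassium-chloride cotransporter, rose by 0.21, a call lost without LPS replicate C or either control replicate (limma adjusted p from 0.0724 to 0.0849). Slc20a1 had 2.31 and 2.38 FPKM in Glul_LPS libraries, 1.86 and 2.11 FPKM in LPS libraries and 8.47 and 8.31 FPKM in control libraries, while the second phosphate importer, Slc20a2, had 1.98 and 1.96 FPKM in LPS libraries, against 2.50 and 2.74 FPKM in control libraries, a log2 change of -0.28 (limma adjusted p = 0.0140) that was 0.23 relative to the median gene (limma adjusted p = 0.0426) and lost its call without LPS or control replicate C (limma adjusted p from 0.0513 to 0.0832). The plasma membrane sodium-calcium exchanger Slc8a1 fell by a log2 change of -1.16, and the endosomal sodium-proton exchanger family member Slc9a9 by -0.69.

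Carriers of vitamins, choline and lipids counted 12 members, of which 2 rose (16.7%, against 17.1% of all genes tested) and 10 fell (83.3%, against 68.0%), and 4 of the 10 that fell entered through control alone. Centred on the median gene, 3 were higher (25%, against 34.6%) and 7 lower (58.3%, against 32.2%). Beside Slc44a1, the ascorbate transporter Slc23a2 rose, with 18.8 and 19.9 FPKM in Glul_LPS libraries, 20.8 and 19.6 FPKM in LPS libraries and 15.4 and 14.5 FPKM in control libraries and a log2 change of 0.41 (limma adjusted p = 7.62e-04). Slc44a2, the relative of Slc44a1, had 7.13 and 7.49 FPKM in LPS libraries, against 8.58 and 8.38 FPKM in control libraries, a log2 change of -0.19 (limma adjusted p = 0.0261), which was 0.33 relative to the median gene and lost its call without LPS replicate B or either control replicate (limma adjusted p from 0.0770 to 0.116). Slc27a1 and Slc46a3, a lysosomal member of the folate transporter family, fell by log2 changes of -1.49 and -1.44.

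All 6 organic ion carriers fell (against 68.0% of all genes tested), 5 of them also relative to the median gene (83.3%, against 32.2%). Slc22a4 had 2.37 and 2.60 FPKM in Glul_LPS libraries, 2.29 and 2.22 FPKM in LPS libraries and 10.3 and 9.60 FPKM in control libraries, and the carnitine transporter Slc22a5 had 2.45 and 2.21 FPKM in Glul_LPS libraries, 1.86 and 2.06 FPKM in LPS libraries and 6.34 and 5.73 FPKM in control libraries, with 26.3% of its 50-base words shared with relatives of the same family. The lysosomal sialic acid exporter Slc17a5 had 8.29 and 8.56 FPKM in Glul_LPS libraries, 6.59 and 7.11 FPKM in LPS libraries and 18.5 and 19.3 FPKM in control libraries, a log2 change of -1.34 (limma adjusted p = 5.20e-06). In all 3 the control libraries were highest, with no overlap.

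Nucleoside carriers were split. Slc28a2 rose, while the lysosomal nucleoside exporter Slc29a3 had 15.9 and 15.6 FPKM in Glul_LPS libraries, 16.3 and 16.3 FPKM in LPS libraries and 30.1 and 30.5 FPKM in control libraries, a log2 change of -0.85 (limma adjusted p = 1.06e-05). The plasma membrane equilibrative transporter Slc29a1 fell as deposited (-0.42) but was 0.10 relative to the median gene, without passing. Within a library, Slc28a2 over Slc29a3 was 2.54 and 2.46 in Glul_LPS libraries, 3.45 and 3.11 in LPS libraries and 0.218 and 0.196 in control libraries. The order of the pair by level was thus the reverse with LPS.

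Of the 3 peptide and histidine carriers, the lysosomal Slc15a4, which is required for Toll-like receptor signalling from endosomes in mice, had 3.33 and 3.43 FPKM in Glul_LPS libraries, 3.62 and 3.61 FPKM in LPS libraries and 9.59 and 9.66 FPKM in control libraries, a log2 change of -1.20 (SE 0.0587, limma adjusted p = 6.70e-06). Its relative Slc15a3 had 133 and 114 FPKM in Glul_LPS libraries, 123 and 127 FPKM in LPS libraries and 110.0 and 119 FPKM in control libraries. The LPS and control libraries of Slc15a3 differed by 0.12 log2 units and missed the threshold (limma adjusted p = 0.221), while relative to the median gene the difference was 0.64 (limma adjusted p = 5.26e-04) and after quantile normalization -0.087. Its exons overlap those of Tmem132a on the opposite strand over 28.1% of their bases, and Tmem132a had 15.8 and 14.4 FPKM in Glul_LPS libraries, 12.1 and 13.6 FPKM in LPS libraries and 29.7 and 28.6 FPKM in control libraries. Its part in the Slc15a3 values was not tested.

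The rule also takes 3 genes whose symbols start with Slc but that encode no carrier. Slc9a3r1, a scaffold protein that binds sodium-proton exchangers and the cytoskeleton, had 132 and 125 FPKM in Glul_LPS libraries, 128 and 143 FPKM in LPS libraries and 75.9 and 80.2 FPKM in control libraries, a log2 change of 0.79 (limma adjusted p = 6.47e-05). Control libraries were lowest. Slc4a1ap and Slc7a6os fell by log2 changes of -0.38 and -0.59, and neither passed relative to the median gene (0.13 and -0.07).

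Ratios within a library do not depend on how libraries are scaled to each other. The pairs were chosen after their values were seen. Slc7a8 over Slc43a2, both carriers of neutral amino acids, was 3.60 and 3.37 in Glul_LPS libraries, 5.65 and 5.62 in LPS libraries and 0.520 and 0.537 in control libraries. Slc30a4 over Slc30a5, both zinc transporters, was 1.54 and 1.54 in Glul_LPS libraries, 1.83 and 1.74 in LPS libraries and 0.162 and 0.183 in control libraries. For both pairs the ratio was below 1 in control libraries and above 1 in all LPS-treated libraries. Slc25a37 over Slc25a28 was 0.677 and 0.640 in Glul_LPS libraries, 0.817 and 0.923 in LPS libraries and 0.402 and 0.371 in control libraries, and Slc25a22 over Slc25a12 was 2.58 and 2.71 in Glul_LPS libraries, 2.36 and 2.16 in LPS libraries and 0.717 and 0.686 in control libraries. Slc15a3 over Slc15a4 was 40.1 and 33.2 in Glul_LPS libraries, 33.8 and 35.1 in LPS libraries and 11.5 and 12.4 in control libraries. Each of these ratios was higher in all 4 LPS-treated libraries than in both control libraries.

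**Figure D4:**
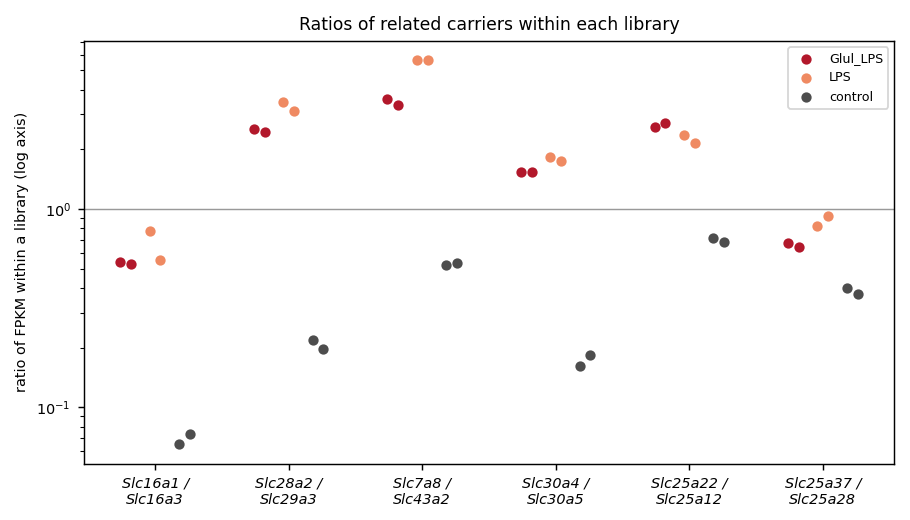
Ratio of FPKM of a pair of related carriers within each library (log axis), for 6 pairs, with Glul_LPS, LPS and control from left to right within a pair and 2 points per group. The control libraries are lowest for each pair shown, and the ratio of Slc28a2, Slc7a8, Slc30a4 and Slc25a22 to their partners crosses 1.

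Some members lie close together in the genome, and only part of these pairs is given, chosen after their values were seen. The closest pair, Slc7a6 and Slc7a6os, is separated by 2011 bases on chromosome 8, and both fell (-1.19 and -0.59). Slc28a2 and Slc30a4 are separated by 220096 bases on chromosome 2 and both rose, and Slc31a2 and Slc31a1 are separated by 62316 bases on chromosome 4 and both rose. Slc22a5 and Slc22a4 are separated by 91463 bases on chromosome 11 and both fell. Slc7a7 and Slc7a8, separated by 304436 bases on chromosome 14, did not share a call, as Slc7a8 rose and Slc7a7 missed the threshold. Slc12a4 rose while Slc7a6, which lies 202760 bases away on chromosome 8, fell. Neighbours were thus of like and of unlike direction, and the share expected by position was not tested.

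The libraries labelled Glul_LPS differed little from LPS libraries in the members. By limma, 3 members were higher (2.03%, against 0.547% of all genes tested) and 0 were lower (against 0.556%), and 31 had an unadjusted p under 0.05 (20.9%, against 17.5%). With so few calls, the share of members is not a result on the class. The mean difference was above 0 in 98 members (66.2%, against 55.7% of all genes), and the median difference was 0.04 log2 units, beside 0.02. Relative to the median gene, 18 members turned sign, 0 of them to above 0, and the medians were 0.01 and -0.01. How many of all genes turned in this comparison was not counted. By limma voom, which covered only the 131 members with recovered fragments, 4 were higher and 1 was lower. That fit also made more calls over all genes, as counted in the last section. The direction rests on the label, since the difference in Glul RNA between these groups did not pass the test.

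The 3 members were the lysosomal haem exporter Slc48a1, Slc43a2 and Slc16a6. Slc48a1, known as HRG1, moves haem out of the lysosomes of macrophages that have engulfed red cells. It had 101 and 101 FPKM in Glul_LPS libraries, 73.8 and 77.6 FPKM in LPS libraries and 145 and 149 FPKM in control libraries, with no overlap between groups, and its log2 difference was 0.41 (SE 0.0460, 95% interval 0.30 to 0.52, limma adjusted p = 0.0243). With the values given above, Slc43a2 differed by 0.42 (SE 0.0584, limma adjusted p = 0.0378) and Slc16a6 by 0.55 (SE 0.0835, limma adjusted p = 0.0457).

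All 3 were lower in LPS than in control libraries, and Glul_LPS lay between LPS and control. These 2 comparisons share the LPS libraries. Each of the 3 calls was lost when any 1 of the 6 libraries was left out, with limma adjusted p from 0.0633 to 0.132 for Slc48a1, from 0.0634 to 0.196 for Slc43a2 and from 0.0966 to 0.190 for Slc16a6. The dendritic cell marker Itgax, which BMDMs also express, moved in the same comparison, with 21.9 and 17.0 FPKM in Glul_LPS libraries, against 37.5 and 34.7 FPKM in LPS libraries (log2 difference -0.87, limma adjusted p = 0.0363). Of the 4 neutrophil markers tested, S100a9 had 1.58 and 0.734 FPKM in Glul_LPS libraries, against 3.21 and 3.70 FPKM in LPS libraries (log2 difference -1.07, limma adjusted p = 0.0781), and Ngp had 0.240 and 0.105 FPKM in Glul_LPS libraries, against 1.27 and 0.909 FPKM in LPS libraries (-0.83, limma adjusted p = 0.0779). Both missed the threshold by limma and were called lower by limma voom (adjusted p = 0.0458 and 0.0227), while S100a8 and Csf3r were not called by either. Limma voom also called the macrophage markers Lyz2 and Itgam and the stromal marker Pdgfrb higher in Glul_LPS libraries. Their log2 differences were 0.23, 0.24 and 0.56 (limma voom adjusted p = 0.00816, 0.0277 and 0.0144), and limma did not call them. The other macrophage markers in the voom fit, Cd68, Fcgr1, Mertk and Mrc1, were not called. Adgre1 and Csf1r were not in that fit. Adgre1 had 575 and 667 FPKM in Glul_LPS libraries, against 452 and 449 FPKM in LPS libraries (log2 difference 0.46, limma adjusted p = 0.0626). Csf1r differed by 0.21 (limma adjusted p = 0.159), so both missed the threshold by limma. The neutrophil list summed to 66.3 and 70.7 FPKM in Glul_LPS libraries, 62.2 and 66.6 FPKM in LPS libraries and 53.8 and 55.7 FPKM in control libraries. The part of these markers in the differences was not tested.

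The 8 members closest to the threshold among those that missed it were Slc28a2 (-0.44, limma adjusted p = 0.0559), Slc7a8 (-0.25, 0.0624), Slc39a4 (0.85, 0.0626), Slc25a1 (0.37, 0.0709), Slc25a39 (0.25, 0.0852), Slc33a1 (0.34, 0.0954), Slc17a5 (0.26, 0.107) and Slc25a28 (0.22, 0.109). Slc39a4, a zinc importer, had 3.38 and 4.88 FPKM in Glul_LPS libraries, 1.70 and 1.92 FPKM in LPS libraries and 4.67 and 5.40 FPKM in control libraries. Its Glul_LPS libraries were close to control and above both LPS libraries, but they also lay farthest apart of any member in that group. On the centred scale 3 members were higher (against 0.483% of all genes) and 2 were lower (against 0.73%). Those 2, Slc28a2 and Slc7a8, were lower in Glul_LPS than in LPS libraries (-0.47, limma adjusted p = 0.0494, and -0.28, limma adjusted p = 0.0449).

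**Figure D5:**
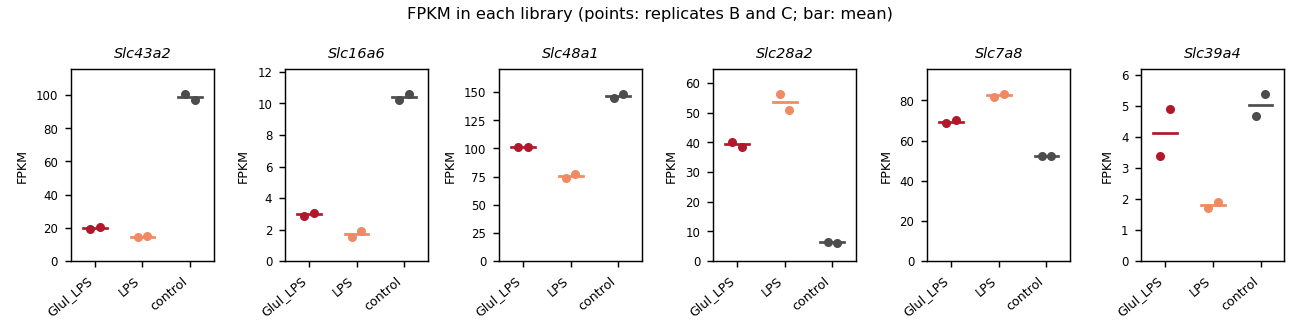
FPKM in each library for the 3 members called higher in libraries labelled Glul_LPS than in LPS libraries (Slc43a2, Slc16a6 and Slc48a1) and for 3 members close to the threshold (Slc28a2, Slc7a8 and Slc39a4), each on its own linear axis from 0. Points are replicates B and C and bars are group means. The Glul_LPS mean lies between the LPS and control means in all 6 panels, and for Slc39a4 the Glul_LPS and control libraries overlap.

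Among the members that rose most with LPS, Slc28a2, Slc30a4 and Slc16a1 were lower in both Glul_LPS libraries than in both LPS libraries. None of these differences was called as deposited, and on the centred scale only that of Slc28a2 was. The LPS-treated groups overlapped for Slc2a6, Slc25a22 and Slc44a1. For Slc2a6 the 95% interval was -0.39 to 0.20 and for Slc44a1 -0.21 to 0.15 log2 units, so these data do not show that the groups act alike, but bound the difference. With 2 libraries a group, only differences that are large beside the replicate spread could pass. That spread, the median absolute log2 difference between replicates over members, was 0.0707 in Glul_LPS, 0.0839 in LPS and 0.0651 in control.

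Compared with control, libraries labelled Glul_LPS gave much the same count as LPS libraries, which share the control. In this comparison 21 members were higher (14.2%, against 16.9% of all genes tested) and 108 were lower (73.0%, against 67.4%), with a median of -0.64 beside -0.48. After centring, 43 were higher (29.1%, against 34.2%) and 67 lower (45.3%, against 31.7%). Slc2a6 had a log2 change of 3.03 with Glul_LPS and 3.12 with LPS, Slc28a2 of 2.47 and 2.91, and Slc43a2 of -2.26 and -2.67. Slc48a1 changed by -0.54 with Glul_LPS and -0.95 with LPS, and relative to the median gene its change with Glul_LPS was -0.05 and did not pass. Slc39a4 differed by -0.25 with Glul_LPS (limma adjusted p = 0.161) and by -1.10 with LPS.

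Transporters outside the Slc symbols were read from lists chosen for their roles. Of 29 tested genes of the solute carrier series with other symbols, 4 rose (13.8%, against 17.1% of all genes tested) and 22 fell (75.9%, against 68.0%) with LPS. Relative to the median gene 9 were higher (31.0%, against 34.6%) and 9 lower (31.0%, against 32.2%). The organic anion transporter family member Slco3a1 had 20.7 and 21.6 FPKM in Glul_LPS libraries, 24.1 and 20.1 FPKM in LPS libraries and 2.21 and 1.38 FPKM in control libraries, a log2 change of 3.06 (limma adjusted p = 6.83e-06), and Mfsd7a, a relative of the haem and choline carriers, changed by 1.65. The lysosomal exporters of cationic amino acids and cystine, Pqlc2 and Ctns, fell by log2 changes of -2.05 and -1.90.

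Of 26 major facilitator and lysosomal carriers and channels, 3 rose (11.5%, against 17.1% of all genes tested) and 19 fell (73.1%, against 68.0%), and after centring 8 were higher (30.8%, against 34.6%) and 11 lower (42.3%, against 32.2%). Mcoln2, a lysosomal cation channel, changed by 1.44 log2 units, the endosomal chloride-proton exchanger Clcn5 by 1.33 and the lysosomal channel Tpcn2 by -1.88. Of 27 partners, pumps and regulators of carriers, 3 rose (11.1%, against 17.1% of all genes tested) and 20 fell (74.1%, against 68.0%), but after centring 12 were higher (44.4%, against 34.6%) and 9 lower (33.3%, against 32.2%). Sgk1, a kinase that regulates many transporters (-2.02), and the magnesium-related protein Cnnm2 (-2.49) fell, while the related kinase Sgk3 rose (0.87). Of 28 ATP-binding cassette transporters, 3 rose (10.7%, against 17.1% of all genes tested) and 21 fell (75%, against 68.0%), and centred 8 were higher (28.6%, against 34.6%) and 15 lower (53.6%, against 32.2%). Tap1, which loads peptides for antigen presentation, had 102 and 108 FPKM in Glul_LPS libraries, 120.0 and 115 FPKM in LPS libraries and 20.4 and 19.1 FPKM in control libraries, a log2 change of 2.51 (limma adjusted p = 4.11e-07), and the peroxisomal fatty acid transporter Abcd2 changed by -2.36.

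In the comparison of Glul_LPS with LPS, 0 genes of the first 3 of these lists were called by limma in either direction (1 in each by limma voom, and 4, 4 and 8 had an unadjusted p under 0.05), and in the last list 1 was (0 by limma voom), the cyclic nucleotide and prostaglandin exporter Abcc4. It had 7.18 and 8.12 FPKM in Glul_LPS libraries, 4.96 and 5.16 FPKM in LPS libraries and 5.51 and 5.06 FPKM in control libraries, a log2 difference of 0.51 (limma adjusted p = 0.0485). The LPS and control libraries of Abcc4 overlapped, and Glul_LPS libraries lay above both.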

How the data were processed

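The authors deposited one table of FPKM values per gene and library, and 6 further columns of per-sample values matched no listed sample and were not used. Per the submitters' processing notes, the build was GRCm38 and the tools were CASAVA, DESeq2, HTSeq 0.6.0 and HISAT2 2.1.0, while their roles, the annotation and the strandedness were not stated. Per the labels' protocols, Illumina HiSeq reads came from NEBNext Ultra libraries.

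With exon lengths from GENCODE M21 (GRCm38), FPKM values corresponded to whole fragments within 0.01 for about 97.0% to 97.5% of genes with 1 exon, which yielded the library totals. The analysis scale was log2(FPKM + 1), unscaled between libraries, which understates the change of low genes. The tests took the 10962 genes that reached 1 FPKM in 2 or more libraries. The 3 comparisons came from a single two-sided limma fit of all groups (version 3.58.1 in R 4.3.3) with a mean-variance trend and 6.27 degrees of freedom. Benjamini-Hochberg adjustment covered the 10962 genes, with calls at an adjusted p under 0.05. The fit was also run on simulated data in which few genes changed, as many up as down. The broad fall with LPS differs from that setting, so the run is no check on the calls made here. "Relative to the median gene" means that each library was centred on the median of its genes tested. "Rose" and "fell" stand for calls only.

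The members, transport classes and gene lists were chosen with earlier results of these data known. Genes were named by rule. In LPS with control these were up to 15 called members per direction, by size of change, whose higher group averaged 5 FPKM or more without overlap, and in Glul_LPS with LPS every called member and the 8 next by p. The rule added the members of highest level, largest rise and largest fall in each class, those near the entry level, the 10 highest by level, a list of members with known macrophage roles, up to 4 per other list, and marker genes. A few partners of ratio or family pairs and genomic neighbours were chosen after their values were seen. The correlation of same-lettered replicates' deviations was checked for pairing. Alternatives were 2 other pseudocounts (0.1 and 0.5), other filters, TPM, quantile normalization, centring, other fits, voom, a minimum change and leaving out each library.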

Additional observations from a re-analysis of the deposited data

How the results depend on the processing

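For LPS with control, 20 members rose, and the count was 37 after quantile normalization, 40 after median centring, 6 with a minimum change of 1 log2 unit, 32 among members with a mean of at least 5 FPKM after centring (chosen after seeing the data) and 17 to 19 when 1 library was left out. The 110 that fell became 57 with a filter at a mean of 5 FPKM, 57 among members with that mean (41 after centring), 42 with a minimum change of 1 and 107 to 110 without 1 library. For Glul_LPS with LPS, the 3 higher became 0 with no filter, 1 after quantile normalization, 0 in a fit of the 2 groups only, 0 with no trend, 0 with a minimum change of 1, and 0 to 1 when 1 library was left out. The 0 lower became 2 with a filter at a mean of 5 FPKM, 2 after median centring, 1 with the replicate block and 1 by limma voom, and stayed 0 without 1 library. For Glul_LPS with control, the 21 higher became 36 after quantile normalization, 43 after centring and 6 with a minimum change of 1, and were 19 to 20 without 1 library. The 108 lower became 55 with the filter at 5 FPKM, 67 after centring and 39 with the minimum change, and were 104 to 108 without 1 library. The cause was not tested, except that the stricter filter and the higher mean leave fewer genes.

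Same-lettered replicates of different groups did not deviate together across genes (r = -0.047, -0.00043 and -0.021). As each group gives a single difference between B and C, this does not settle whether same-lettered libraries share a mouse or dish. With the replicate block, 20 members rose and 110 fell for LPS with control. For Glul_LPS with LPS 2 were higher and 1 lower. For Glul_LPS with control 20 were higher and 107 lower.

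Over all genes, Glul_LPS with LPS gave 60 higher and 61 lower calls, from 1 and 0 without LPS replicate B to 279 and 269 by voom, so calls in this comparison depend on single libraries and on the fit. Centring moved every gene of LPS with control up by the same amount, so a sign could only turn to above 0. How many of all genes turned was not counted. The sign for LPS with control turned in 32 of the 148 members after centring, 14 of them past the threshold there, and in 25 after quantile normalization. Among the members with values in the text, it turned after centring in Slc25a5 (0.061), Slc25a28 (0.16), Slc29a1 (0.098), Slc3a2 (0.44), Slc25a1 (0.040), Slc25a10 (0.15), Slc7a7 (0.47), Slc44a2 (0.33), Slc20a2 (0.23) and Slc4a1ap (0.13), and after quantile normalization in Slc15a3 (-0.087), Slc7a7 (0.20), Slc25a13 (0.044), Slc44a2 (0.27), Slc20a2 (0.30) and Slc4a1ap (0.19). Slc35a3, at 0.0045, ranged from -0.054 to 0.063 when 1 library was left out, with the sign turned without LPS replicate B (-0.054) and without control replicate B (-0.013). For Glul_LPS with control Slc39a4 was 0.24 after centring and 0.28 after quantile normalization. Of the alternatives for single members, 1658 kept direction and call, 60 lost the call, 20 gained it and 20 turned sign. The members' recovered fragments were as low as 17, which limits the weakly expressed ones.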
